A study of Mus musculus with 6 samples.

Results

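The 9 genes described here encode complement components and the receptors of their activation fragments: *C1qa*, *C1qb*, *C1qc*, *C2*, *C3*, *C4b*, *Cfb*, *C3ar1* and *C5ar1*. They were taken, by the NCBI gene identifier of each row, from a table of 19790 genes measured by RNA-seq in gonadal white adipose tissue, a visceral depot next to the gonads that is abbreviated gWAT. The tissue came from wild-type C57BL/6 mice, male according to the methods, of which 3 received a normal chow diet (NCD) and 3 a high-fat diet (HFD) for 8 weeks. According to the labels the feeding began when the mice were 6 weeks old, whereas the methods give an older starting age. The labels name no treatment other than the diet, each library is 1 mouse, and the study calls the 3 mice of a diet biological replicates.

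Complement is a set of plasma proteins, receptors and regulators that tag particles and cells for removal and recruit leukocytes. Its classical pathway starts when C1q, built from the A, B and C chains, binds a target and the attached proteases C1r and C1s cleave C4 and C2. The alternative pathway runs through C3, factor B and the protease factor D, which adipocytes make in large amounts and which is also called adipsin. Both lead to cleavage of C3 and C5, and the small fragments C3a and C5a act through G protein-coupled receptors on myeloid cells, while macrophages are a main source of C1q and adipose tissue itself makes C3 and factor B.

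Of the 9 genes, all were measured well enough to be tested, and 5 rose on HFD: the 3 C1q chains and both receptors. The other 4, *C2*, *C3*, *C4b* and *Cfb*, did not pass the test. The test was edgeR's quasi-likelihood test over 15241 genes with Benjamini-Hochberg adjustment and a threshold of 0.05, under which 5.58% of all genes tested rose and 7.47% changed in either direction. The NCD and HFD ranges were separate for 6 of the 9 genes, the 5 above and *Cfb*, all higher on HFD, as was so for 20.5% of all genes tested. The median log2 fold change was 1.48 over the 9 genes and -0.08 over all genes tested.

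The libraries held from 49575113 to 66360046 counts. NCD replicate 1 stood apart, with 58.6% of its counts on 11 genes of seminal vesicle secretion, against 11.2% and 2.30% in NCD replicates 2 and 3 and from 2 to 8 counts in the HFD libraries. Values are therefore given as CPM, the counts of a gene relative to the library total, scaled by TMM, a factor estimated over many genes that was 0.496 for this library and from 1.02 to 1.27 for the others. In all 9 genes the smallest of the NCD values was that of NCD replicate 1, as it was in 45.6% of all genes tested. Without this library the same 5 genes rose, where 10.7% of all genes tested rose and 20.9% changed in either direction, and the median log2 fold change of the 9 genes was 1.24. Without any 1 of the other 5 mice none of the 9 passed in edgeR, with 5 or 6 at an unadjusted p under 0.05, and the 5 genes had adjusted p values from 0.0561 to 0.144. In these 5 fits from 2 to 7 of all genes tested passed, at most 0.045%. Of the 15433 to 15764 genes tested in each, from 2988 to 4345 had an unadjusted p under 0.05. The log2 fold changes of these fits were at least 1.46 for the C1q chains and at least 3.06 for the receptors.

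**Figure D1:**
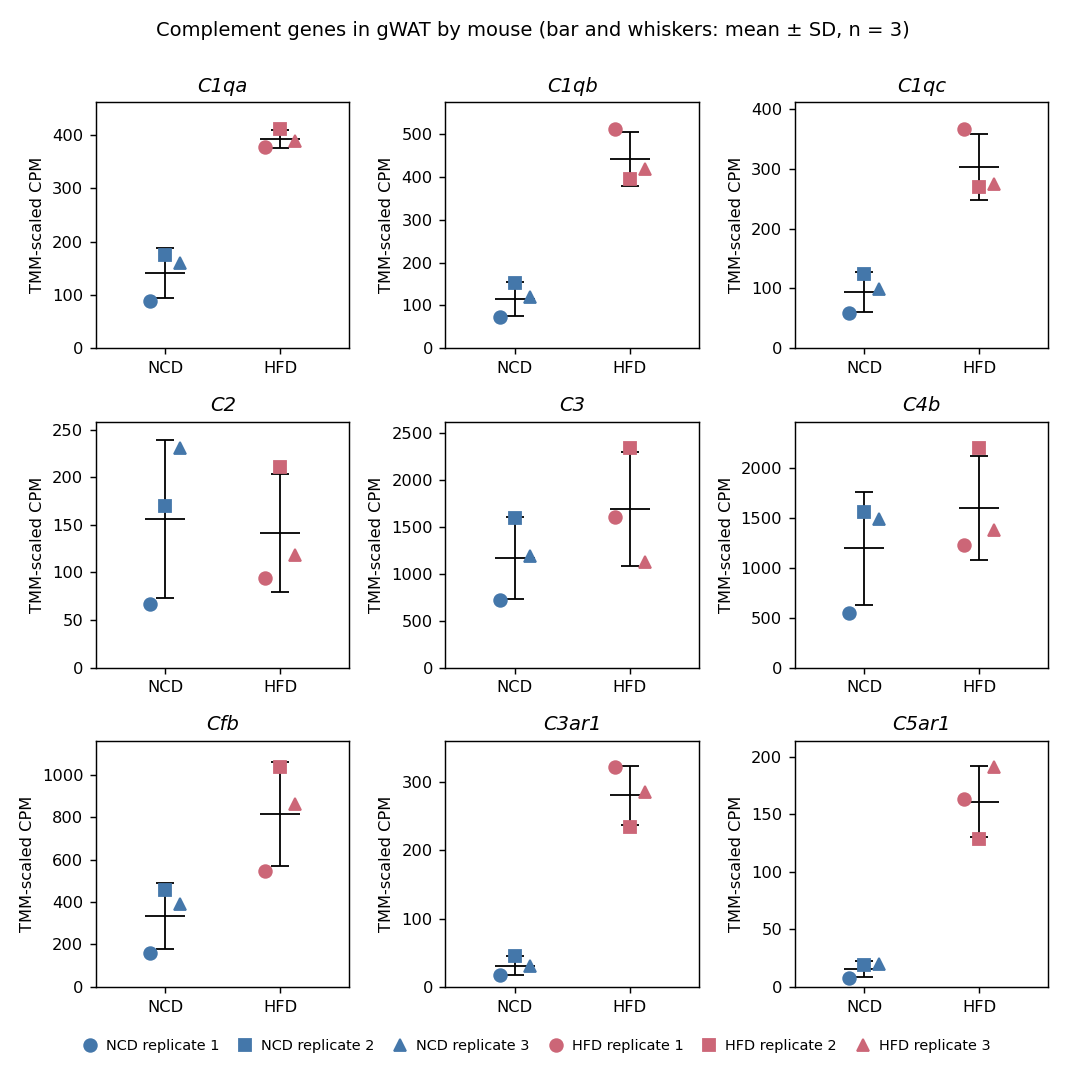
Each panel shows 1 gene, with TMM-scaled CPM on a linear axis from 0, 1 point per mouse, and the mean with SD of the 3 mice of a diet. The points of the diets are apart for the C1q chains, *Cfb*, *C3ar1* and *C5ar1*, and overlap for *C2*, *C3* and *C4b*.

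C1q, the recognition subunit of the classical pathway, is encoded by 3 adjacent genes on chromosome 4 of GRCm38, all on the minus strand. *C1qb* (NCBI gene 12260) lies at chr4:136880126-136886200, *C1qc* (12262) at chr4:136889801-136892936 and *C1qa* (12259) at chr4:136895916-136898844. The gaps between them measure 3600 and 2979 bp.

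*C1qa*, the A chain, stood at 87.7, 174 and 161 CPM on NCD and at 377, 412 and 389 CPM on HFD, in the order of replicates 1, 2 and 3 that is kept throughout. All HFD mice were above all NCD mice, and the HFD mice lay close together. The means were 141 ± 46.6 CPM on NCD and 393 ± 17.6 CPM on HFD (SD, n = 3 mice each), a rise of 2.79-fold (log2 fold change 1.48, SE 0.29, edgeR adjusted p = 0.0407). *C1qb*, the B chain, stood at 72.2, 152 and 120 CPM on NCD and at 513, 394 and 419 CPM on HFD. The groups were again apart, with HFD replicate 1 the highest. The means of 115 ± 40.3 and 442 ± 62.6 CPM gave a rise of 3.85-fold (log2 fold change 1.95, SE 0.32, edgeR adjusted p = 0.0271). *C1qc*, the C chain, stood at 58.5, 125 and 98.9 CPM on NCD and at 367, 269 and 274 CPM on HFD. The 6 mice fell in the same order as for *C1qb*, and it rose by 3.23-fold (log2 fold change 1.69, SE 0.32, edgeR adjusted p = 0.0365). Without NCD replicate 1 the log2 fold changes of the A, B and C chains were 1.24, 1.71 and 1.45, with edgeR adjusted p values of 0.00703, 0.00759 and 0.0110.

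Levels of different genes were compared per exon length, as FPKM, the TMM-scaled CPM divided by the exon length in kilobases. Of the summed FPKM of the 3 chains, *C1qb* made up 33.3%, 34.0% and 31.8% in the NCD mice and 41.4%, 36.9% and 39.0% in the HFD mice. Its share was higher in every HFD mouse than in every NCD mouse, a description made after the values were seen and without a test. The share of *C1qa* was 42.5 ± 1.89% on NCD and 36.7 ± 4.37% on HFD (SD, n = 3), and that of *C1qc* was 24.4 ± 0.756% and 24.2 ± 2.22%.

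The 2 receptors changed by the largest factors among the 9 genes. *C3ar1* (12267, chr6:122847140-122856157, minus strand) encodes the receptor of C3a. It stood at 18.1, 45.5 and 30.1 CPM on NCD and at 321, 234 and 285 CPM on HFD. Every HFD mouse was several times above the highest NCD mouse. The means were 31.2 ± 13.7 and 280 ± 43.5 CPM (SD, n = 3 each), a rise of 8.97-fold with a 95% interval from 4.74 to 17.0 (log2 fold change 3.17, SE 0.38, edgeR adjusted p = 0.0212). *C5ar1* (12273, chr7:16246743-16259540, minus strand) encodes the main signalling receptor of C5a. It stood at 7.73, 19.1 and 19.5 CPM on NCD and at 163, 129 and 191 CPM on HFD. The groups were again far apart, although HFD replicate 3 and not replicate 1 was the highest. The means of 15.4 ± 6.68 and 161 ± 31.0 CPM gave a rise of 10.4-fold with a 95% interval from 5.20 to 20.8 (log2 fold change 3.38, SE 0.41, edgeR adjusted p = 0.0212). Without NCD replicate 1 the log2 fold changes were 2.91 for *C3ar1* and 3.07 for *C5ar1*, with edgeR adjusted p values of 0.00571 and 0.00544. The ratio of *C3ar1* to *C5ar1* within a library was 2.34, 2.39 and 1.54 on NCD and 1.97, 1.82 and 1.497 on HFD. These ranges overlapped, and the log2 ratio differed by -0.23 between the diets (two-sided exact permutation test, p = 0.3, where 3 mice against 3 allow no p under 0.1).

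**Figure D2:**
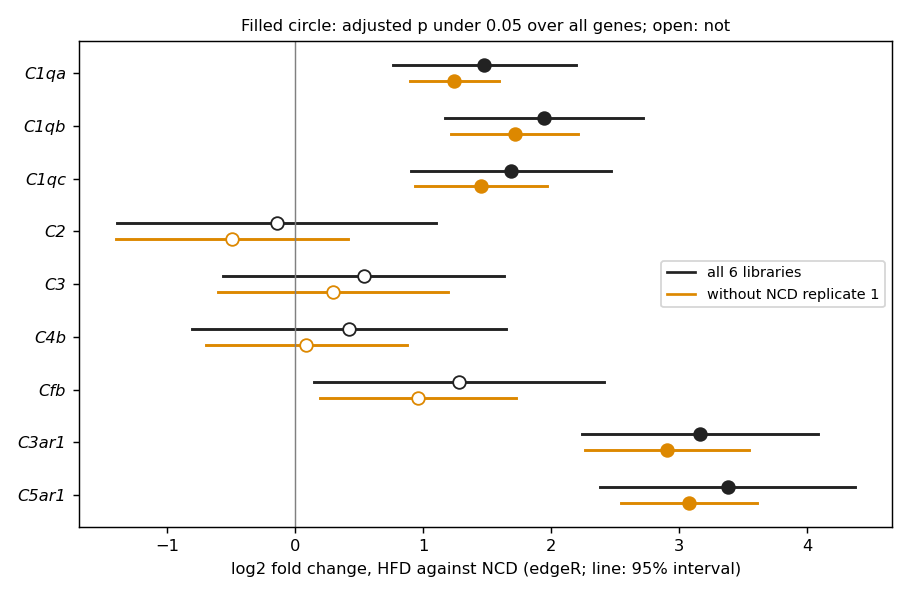
Points show the log2 fold change of HFD against NCD from edgeR for each gene, in black for all 6 libraries and in orange without NCD replicate 1, lines are 95% intervals, and filled points passed an adjusted p of 0.05. *C5ar1* and *C3ar1* lie at 3.38 and 3.17, the C1q chains between 1.48 and 1.95, and the intervals of *C2*, *C3* and *C4b* span 0.

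*C3* (12266, chr17:57203967-57228136, minus strand), the central component on which the pathways converge, was among the most abundant of the 9 genes on both diets. It stood at 719, 1595 and 1191 CPM on NCD and at 1610, 2343 and 1129 CPM on HFD. HFD replicate 3 was below 2 of the NCD mice, so the groups overlapped. The means were 1169 ± 439 and 1694 ± 611 CPM, and the log2 fold change of 0.54 had a 95% interval from -0.56 to 1.63 (edgeR adjusted p = 0.456). *C4b* (12268, chr17:34728139-34743902, minus strand) encodes C4, which is cleaved by C1s. It stood at 542, 1553 and 1489 CPM on NCD and at 1226, 2198 and 1376 CPM on HFD. The groups overlapped, and the log2 fold change was 0.42, with a 95% interval from -0.81 to 1.65 (edgeR adjusted p = 0.603). Reads of *C4b* can be shared with its near-identical copy *C4a*, so its own value is uncertain, and the sum of both genes gave a log2 fold change of 0.43 (edgeR adjusted p = 0.594).

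*C2* and *Cfb* encode the homologous serine proteases of the classical and the alternative C3 convertase, and their genes are neighbours on chromosome 17, 87 bp apart on the minus strand. *C2* (12263, chr17:34862602-34882100) stood at 66.9, 170 and 231 CPM on NCD and at 94.2, 211 and 118 CPM on HFD. The diets overlapped throughout, and the log2 fold change of -0.14 had a wide 95% interval, from -1.39 to 1.10 (edgeR adjusted p = 0.870). *Cfb*, factor B (14962, chr17:34856374-34862514), stood at 160, 456 and 389 CPM on NCD and at 547, 1034 and 860 CPM on HFD. Each HFD mouse was above each NCD mouse, but *Cfb* did not pass the test in edgeR, with means of 335 ± 155 and 813 ± 246 CPM and a log2 fold change of 1.28 with a 95% interval from 0.15 to 2.41 (adjusted p = 0.134, and 0.0794 without NCD replicate 1). It passed in DESeq2, with an adjusted p of 0.0306, where 25.6% of all genes tested passed and 6 of the 9 genes did. The end of *Cfb* lies 1 bp from *Nelfe* on the other strand, and the sources used here do not say whether reads were counted by strand. Within a library, the ratio of *Cfb* to *C2* was 2.39, 2.68 and 1.69 on NCD and 5.81, 4.89 and 7.29 on HFD. This ratio, chosen after the values were seen and therefore given without a test, was higher in every HFD mouse than in every NCD mouse.

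Per exon length, the order of the genes differed between the diets in these means. On NCD the mean FPKM ran from *C3* (228 ± 85.4) and *C4b* (222 ± 105) through *C1qa* (136 ± 44.8), *Cfb* (122 ± 56.4), *C1qb* (106 ± 37.0), *C1qc* (78.2 ± 27.8) and *C2* (56.0 ± 29.8) to *C3ar1* (7.25 ± 3.19) and *C5ar1* (6.01 ± 2.60). The ranges of neighbours in this order overlapped over the NCD mice, except those of *C2* and *C3ar1*. Within each NCD mouse, *C4b* was also above *C1qa*, *C1qa* above *Cfb* and *C1qb* above *C1qc*. On HFD the order was *C1qb* (406 ± 57.5), *C1qa* (378 ± 16.9), *C3* (330 ± 119), *C4b* (297 ± 97.2), *Cfb* (296 ± 89.6), *C1qc* (252 ± 45.8), *C3ar1* (65.1 ± 10.1), *C5ar1* (62.5 ± 12.1) and *C2* (50.7 ± 22.2). Here the one step without overlap lay between *C1qc* and *C3ar1*. In HFD replicate 2, *C3* and *C4b* were the highest, whereas *C1qb* and *C1qa* were the highest in HFD replicates 1 and 3.

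**Figure D3:**
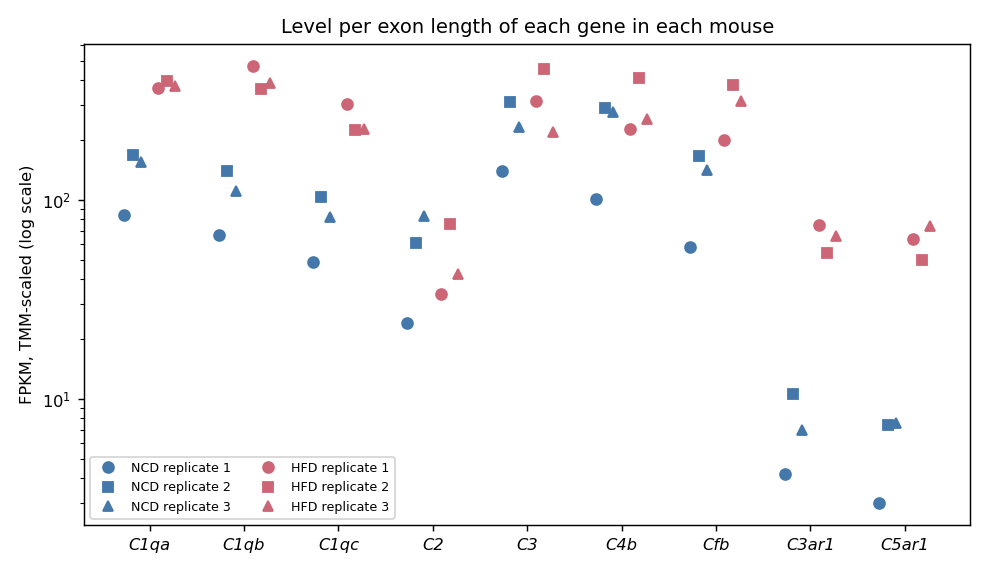
FPKM, on a log axis, is shown for each gene and mouse, with colours for the diets and marker shapes for the replicates. The receptors lie lowest on NCD, at means of 7.25 and 6.01 FPKM, and on HFD they reach 65.1 and 62.5 FPKM, beside *C2*.

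Upstream sequence from RefSeq (GRCm38.p6) was at hand for 5 of the 9 genes, and it is shown for the 3 whose window held at least 200 bases free of exons: a C1q chain and a receptor that rose, and *C3*, which did not pass the test. Each runs 5′ to 3′ on the minus strand, the strand of the gene, with capitals for the match to a searched motif. The windows are chr4:136886201-136886450 for *C1qb*, chr17:57228137-57228386 for *C3* and chr6:122856162-122856407 for *C3ar1*.
C1qb: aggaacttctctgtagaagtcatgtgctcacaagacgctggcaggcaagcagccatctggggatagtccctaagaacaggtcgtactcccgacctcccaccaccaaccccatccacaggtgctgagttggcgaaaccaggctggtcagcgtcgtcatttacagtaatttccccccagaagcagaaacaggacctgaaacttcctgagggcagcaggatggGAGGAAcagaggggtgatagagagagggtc
C3: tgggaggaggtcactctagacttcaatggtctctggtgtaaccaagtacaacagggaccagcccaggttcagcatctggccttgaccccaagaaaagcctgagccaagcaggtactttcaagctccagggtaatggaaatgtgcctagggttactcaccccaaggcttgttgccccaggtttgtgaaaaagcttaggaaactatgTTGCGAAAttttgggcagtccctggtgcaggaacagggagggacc
C3ar1: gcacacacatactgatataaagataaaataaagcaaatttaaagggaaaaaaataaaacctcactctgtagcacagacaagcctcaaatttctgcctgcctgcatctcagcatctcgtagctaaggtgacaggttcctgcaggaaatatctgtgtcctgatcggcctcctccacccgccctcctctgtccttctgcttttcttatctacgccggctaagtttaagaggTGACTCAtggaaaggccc
The motifs searched on both strands were GAGGAA (the core bound by PU.1, a factor of myeloid cells), TTGCNNAA (C/EBP), TGANTCA (AP-1), an interferon response repeat (GAAA, any 2 bases, GAAA) and TTCNNNGAA (STAT). The *C1qb* window held GAGGAA, 30 bases before its end, and this core occurs in 23.3% of 32851 RefSeq windows of 250 bases. The *C3* window held a C/EBP match 45 bases before its end (9.56% of windows), and the *C3ar1* window held an AP-1 match 18 bases before its end (6.75% of windows). A match of letters is a description of the window, and no binding was measured.

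The other complement genes were examined as a list of 45 genes, of which 31 could be tested. In edgeR 4 of them rose (*Cfp*, *Serping1*, *Itgam* and *Itgb2*) and 1 fell (*Masp1*), their median log2 fold change was 0.27, and 1.9% of all genes tested fell. Without NCD replicate 1, 33 could be tested, 5 rose and 5 fell, with *Itgax* added to the first and *Cfd*, *C6*, *C7* and *Vtn* to the second, where 10.1% of all genes tested fell. No gene of the list passed without any 1 of the other 5 mice, where at most 0.045% of all genes tested passed. In these fits from 10 to 12 of the 31 to 33 genes tested had an unadjusted p under 0.05. So had from 2988 to 4345 of all 15433 to 15764 genes tested.

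Among the recognition molecules and initiating proteases, 8 of 13 genes were tested, none rose and *Masp1*, a protease of the lectin pathway, fell. It stood at 5.63, 16.6 and 10.5 CPM on NCD and at 1.37, 1.68 and 1.27 CPM on HFD (log2 fold change -2.92, SE 0.44, edgeR adjusted p = 0.0240). *C1s1*, the most abundant of this group and the protease that cleaves C4 and C2, stood at 131, 246 and 251 CPM on NCD and at 297, 440 and 251 CPM on HFD (log2 fold change 0.65, edgeR adjusted p = 0.258). Its partner *C1ra* had a log2 fold change of 0.75 (edgeR adjusted p = 0.199). Within libraries, the ratio of summed C1q to summed *C1ra* and *C1s1* was 1.10, 1.21 and 1.03 on NCD and 2.94, 1.58 and 2.70 on HFD, without overlap and, as it was chosen after the values were seen, without a test.

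In the alternative pathway, *Cfp* (properdin, which stabilizes the convertase) stood at 21.0, 50.4 and 57.7 CPM on NCD and at 126, 168 and 206 CPM on HFD and rose (log2 fold change 1.95, SE 0.41, edgeR adjusted p = 0.0463). Its edgeR adjusted p was 0.0557 without the filter on low counts, 0.0529 with upper-quartile scaling and 0.0680 with total counts alone. *Cfd*, adipsin, stood at 1874, 6338 and 8818 CPM on NCD and at 392, 1052 and 659 CPM on HFD. Every HFD mouse was below every NCD mouse, with a log2 fold change of -3.02 and an edgeR adjusted p of 0.0650, and of -3.42 and 0.0111 without NCD replicate 1. The ratio of *C3* to *Cfd* within a library was 0.384, 0.252 and 0.135 on NCD and 4.11, 2.23 and 1.71 on HFD. It was higher in every HFD mouse, and the log2 ratio differed by 3.41 (two-sided exact permutation test, p = 0.1, the smallest p that 3 mice against 3 can give). Without NCD replicate 1 the difference was 3.76.

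**Figure D4:**
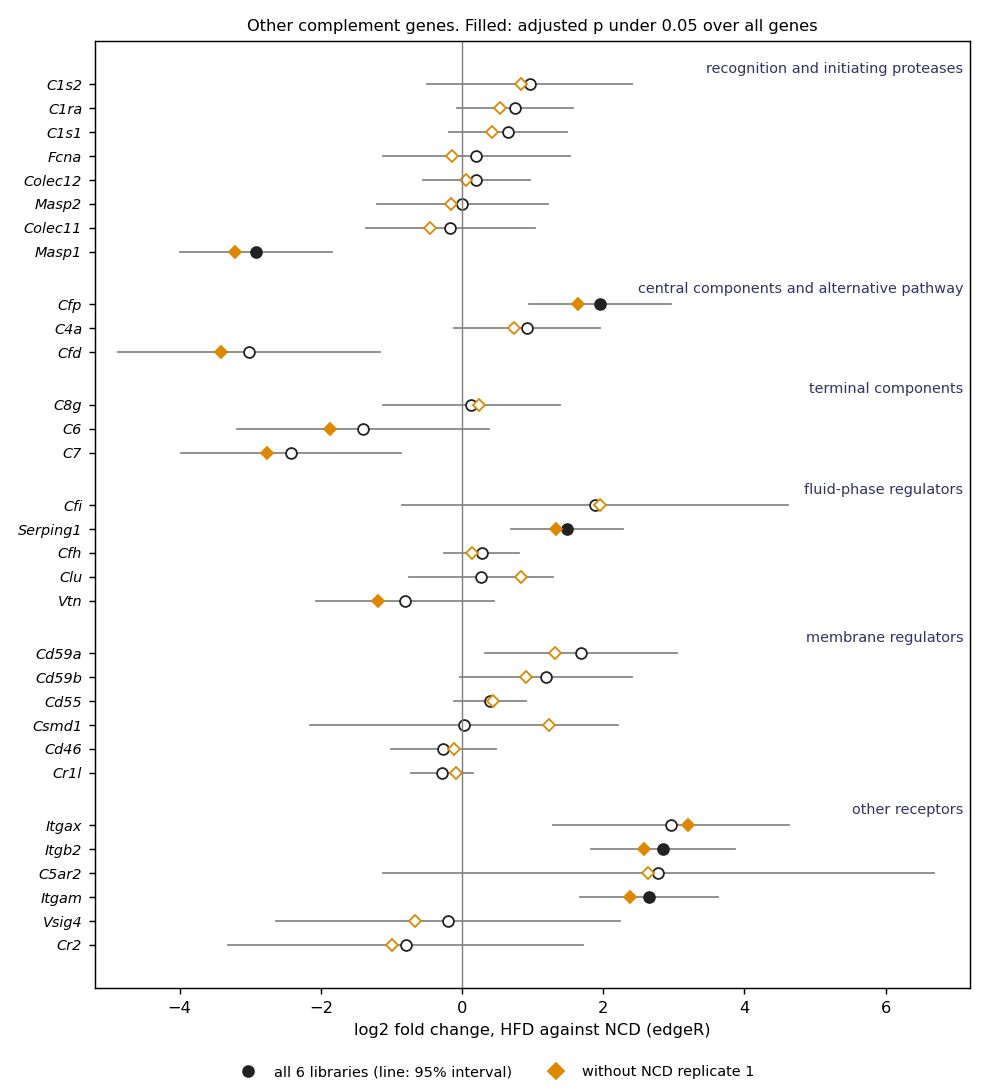
Log2 fold changes of HFD against NCD are shown for the 31 other complement genes tested, grouped by role, as circles with 95% intervals for all 6 libraries and diamonds without NCD replicate 1, filled where the adjusted p was under 0.05. *Masp1* (-2.92) is the filled circle on the left, and *Cfp*, *Serping1*, *Itgam* and *Itgb2* are those on the right.

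Of the terminal components, which form the membrane attack complex, 3 of 7 were tested and none passed in edgeR with all libraries. Among them 1 had an unadjusted p under 0.05 and 1 was called by DESeq2. Of all 15241 genes tested, 4524 had an unadjusted p under 0.05 and 25.6% were called by DESeq2. *C6* stood at 20.5, 75.6 and 169 CPM on NCD and at 39.2, 41.3 and 19.7 CPM on HFD, with log2 fold changes of -1.41 (edgeR adjusted p = 0.253) and, without NCD replicate 1, of -1.87 (0.0372). *C7* stood at 30.0, 107 and 63.3 CPM on NCD and at 15.1, 17.4 and 4.84 CPM on HFD, with log2 fold changes of -2.42 (0.0713) and -2.76 (0.0233). *Hc*, which encodes C5, the precursor of the C5a that C5AR1 binds, had no count in any NCD library, which allows up to 3 counts per library as far as counting error goes, and 28, 4 and 16 counts in the HFD libraries. *C5ar1* rose in tissue in which the RNA of its ligand's precursor was at or near 0. These counts are RNA of the tissue, and C5, a plasma protein, was not measured.

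Among the fluid-phase regulators 5 of 8 were tested, and *Serping1*, which encodes the C1 inhibitor, rose from 194, 355 and 215 CPM on NCD to 640, 889 and 609 CPM on HFD (log2 fold change 1.48, SE 0.33, edgeR adjusted p = 0.0496). This call was lost without the filter (edgeR adjusted p = 0.0608), with upper-quartile scaling (0.0556) and with total counts alone (0.0835). *Vtn*, vitronectin, had log2 fold changes of -0.81 (edgeR adjusted p = 0.334) and, without NCD replicate 1, of -1.19 (0.0409). None of the 6 membrane regulators tested, of 8, passed in edgeR with all libraries. Among them 1, *Cd59a*, had an unadjusted p under 0.05 and was called by DESeq2 (adjusted p = 0.0180). DESeq2 called 25.6% of all genes tested, and 4524 of these 15241 genes had an unadjusted p under 0.05 in edgeR. *Cd59a*, which encodes an inhibitor of the membrane attack complex and had the highest mean CPM of the group, stood at 20.5, 54.6 and 76.7 CPM on NCD and at 253, 118 and 116 CPM on HFD. It was higher in every HFD mouse, with a log2 fold change of 1.68 (edgeR adjusted p = 0.112). *Cr1l*, a regulator of C3 convertases that was higher than *Cd59a* on NCD in mean CPM, stood at 102, 72.6 and 72.5 CPM on NCD and at 72.0, 66.01 and 65.2 CPM on HFD (log2 fold change -0.28, edgeR adjusted p = 0.341).

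Of the 6 other receptors, all tested, *Itgam* and *Itgb2* rose. They encode the chains of complement receptor 3, an integrin that binds the C3 fragment iC3b. *Itgam* stood at 31.4, 58.8 and 75.7 CPM on NCD and at 253, 336 and 448 CPM on HFD (log2 fold change 2.64, SE 0.40, edgeR adjusted p = 0.0240). *Itgb2* stood at 22.7, 51.6 and 47.1 CPM on NCD and at 409, 213 and 250 CPM on HFD (log2 fold change 2.85, SE 0.42, edgeR adjusted p = 0.0237). Both were higher in every HFD mouse. So was *Itgax*, the alpha chain of complement receptor 4, at 13.8, 10.95 and 7.18 CPM on NCD and 169, 36.0 and 43.0 CPM on HFD, with a log2 fold change of 2.96 (edgeR adjusted p = 0.0549, and 0.0441 without NCD replicate 1). Without HFD replicate 1, the highest of these mice, its log2 fold change was 1.905 (edgeR adjusted p = 0.0603).

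In sum, markers of macrophages were higher in every HFD mouse than in every NCD mouse, as were the C1q chains and the receptors. Of 8 macrophage markers 3 rose in edgeR (*Adgre1*, *Cd68* and *Fcgr1*), 6 were called by DESeq2, and 6 rose in edgeR without NCD replicate 1. Of all genes tested, 5.58% rose in edgeR, 25.6% were called by DESeq2 in either direction, and 10.7% rose in edgeR without that library. The summed level of the 8 markers was from 386 to 912 CPM on NCD and from 1980 to 3250 CPM on HFD. Within the HFD mice, *C1qb*, *C1qc* and *C3ar1* fell in the same order as this sum, and *C1qa* and *C5ar1* did not. *Cd163* and *Mertk* had log2 fold changes of -0.07 and 0.23 and did not pass. In bulk tissue, a larger number of cells of a type cannot be told apart from more RNA per cell.

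The ratio of summed C1q to the summed macrophage markers, of which *Lyz2* made up the largest share, was 0.566, 0.495 and 0.461 on NCD and 0.387, 0.543 and 0.436 on HFD. The diets overlapped, and the log2 ratio differed by -0.17 (two-sided exact permutation test, p = 0.4, smallest possible 0.1), or by -0.09 with the geometric mean of the markers in place of their sum. Against *Adgre1* alone, which encodes F4/80, the C1q ratio was 8.57, 7.89 and 10.5 on NCD and 3.01, 5.11 and 4.65 on HFD, lower in every HFD mouse. The ratio of *C3ar1* to *Adgre1* was 0.710, 0.796 and 0.831 on NCD and 0.767, 1.11 and 1.23 on HFD, with overlap. That of *C5ar1* to *Adgre1* also overlapped, at 0.303, 0.333 and 0.539 on NCD and 0.390, 0.612 and 0.819 on HFD. The ratio of *C3ar1* to summed C1q was 0.0828, 0.101 and 0.0792 on NCD and 0.255, 0.218 and 0.263 on HFD, higher in every HFD mouse. The 4 ratios to *Adgre1* and to C1q were chosen after the values were seen and are given without a test.

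**Figure D5:**
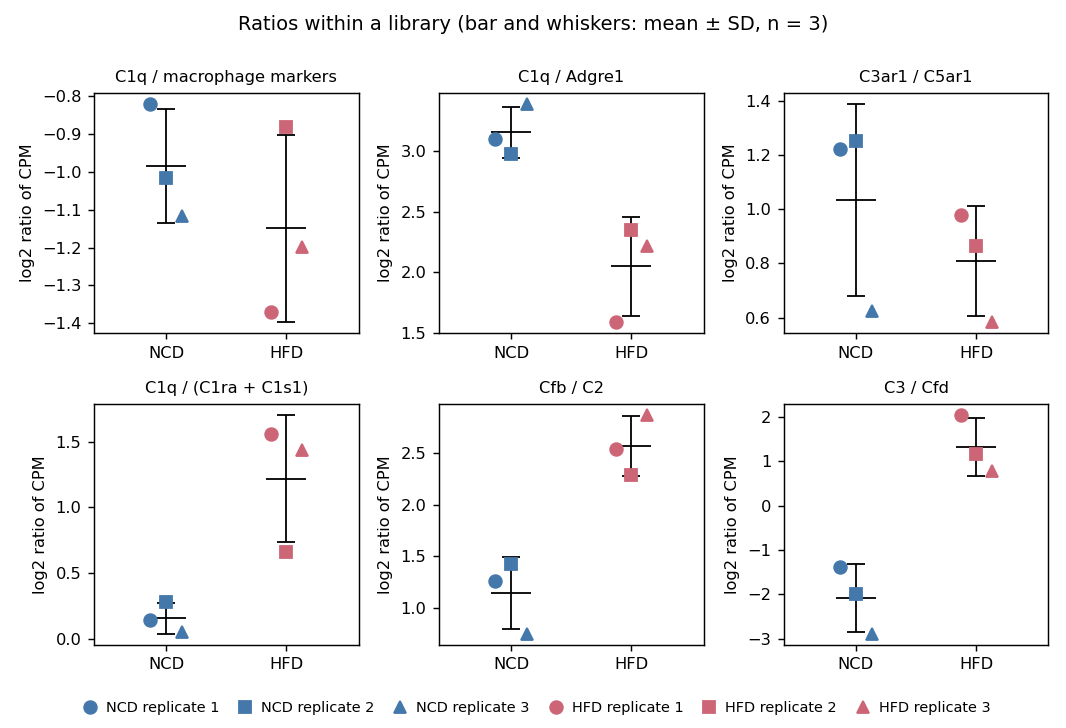
Log2 ratios of CPM within a library are shown for 6 pairs of genes or gene sums, with 1 point per mouse and the mean with SD of the 3 mice of a diet, on axes that differ between panels and need not start at 0. The ratio of *C3* to *Cfd* separates the diets, with a difference of 3.41 in log2, as do those of *Cfb* to *C2* and of C1q to *Adgre1* and to the C1r and C1s genes, while the C1q to macrophage marker ratio and the *C3ar1* to *C5ar1* ratio overlap.

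Other cell types moved less uniformly. Of all 15241 genes tested, 5.58% rose in edgeR, 4524 had an unadjusted p under 0.05 and 25.6% were called by DESeq2. Without NCD replicate 1, 10.7% rose in edgeR and 10.1% fell. The summed level of 7 neutrophil markers was from 4.41 to 9.60 CPM on NCD and 20.5, 144 and 392 CPM in the HFD mice. Of the 4 tested, 1 rose in edgeR, 3 had an unadjusted p under 0.05 and 3 were called by DESeq2. *S100a8* was at most 1.17 CPM on NCD and stood at 3.88, 24.9 and 76.6 CPM on HFD. *Csf3r* was at most 7.74 CPM on NCD and stood at 15.8, 66.2 and 145 CPM on HFD. *S100a9* and *Retnlg* were highest in HFD replicate 3, at 164 and 5.99 CPM. *Ly6g* and *Mpo* were at most 0.175 CPM in every library, and *Elane* at most 0.651 CPM. HFD replicate 3 was the highest both on the summed neutrophil markers and for *C5ar1*, which stood at 163, 129 and 191 CPM. HFD replicates 1 and 2 stood in opposite orders on these 2 measures. The summed macrophage markers, at 3250, 1980 and 2484 CPM in the HFD mice, were highest in HFD replicate 1. The 8 adipocyte markers summed to from 3708 to 20047 CPM on NCD, with NCD replicate 1 the lowest, and to from 11388 to 15171 CPM on HFD, and none passed in edgeR, with 1 at an unadjusted p under 0.05 and 1 called by DESeq2. In the fit without NCD replicate 1, 3 of the 8 adipocyte markers fell (*Plin1*, *Lipe* and *Slc2a4*). The 8 stromal progenitor markers summed to from 1394 to 2476 CPM on NCD and from 3423 to 5103 CPM on HFD, with 1 that rose in edgeR, 5 at an unadjusted p under 0.05 and 5 called by DESeq2. In the fit without that library 2 of them rose. The 6 mesothelial markers summed to from 112 to 364 CPM on NCD and from 198 to 595 CPM on HFD, with 1 that rose in edgeR, 2 at an unadjusted p under 0.05 and 2 called by DESeq2. Liver genes, which would mark plasma protein transcripts of hepatocytes, summed to at most 7.94 CPM on NCD and to 35.7 CPM in HFD replicate 1. No endothelial, T cell, B cell or mast cell marker passed in edgeR or DESeq2 with all libraries, with 2 mast cell markers and 0 of the others at an unadjusted p under 0.05. In the fit without NCD replicate 1, 1 of the 5 endothelial markers rose (*Pecam1*, edgeR adjusted p = 0.0496) and no T cell, B cell or mast cell marker passed. The part of any of these cells in the changes of the 9 genes was not tested.

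Across the 6 libraries, the genes whose log2 CPM followed the mean of the 3 C1q chains most closely were *Mcub*, *Crtac1*, *Kcnab2*, *Rnf150* and *Ticam2*, with Pearson's r from 0.997 to 0.998 among 9827 genes compared. Among the 9 genes, r was 0.991 for *C3ar1*, 0.986 for *C5ar1*, 0.890 for *Cfb*, 0.694 for *C3*, 0.639 for *C4b* and 0.178 for *C2*. These values describe 6 libraries that share the diet contrast and the low NCD replicate 1, and 10.2% of the genes compared had an r of at least 0.9.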

How the data were processed

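RNA of gWAT from 6 mice was sequenced after Trizol extraction and TruSeq stranded mRNA library preparation, per the labels. As deposited by the authors, the values are raw counts per gene that had not been normalized. The submitters' processing notes name bcl2fastq 2.20.0, Trimmomatic, HISAT2 2.1.0, StringTie 1.3.4d and DESeq2, and the builds mm10 and GRCm38. The column of HFD replicate 3 carries the number 4, and 0 columns lacked a sample. Of 19790 identifiers, 19742 were paired with a symbol, and the other 48 held 0.629% of the counts.

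In edgeR 4.0.16 under R 4.3.3, filterByExpr removed genes with low counts (settings 10 per library and 15 in total). TMM factors were computed, the quasi-likelihood fit and F test of diet were run, and p values were adjusted by Benjamini-Hochberg over the genes kept. FPKM used union exon lengths of GENCODE vM21. Ratios were tested by exact permutation (scipy 1.17.1). The common biological coefficient of variation was 0.424. No 2 replicates agreed within counting noise (chi-square over its degrees of freedom at least 111). The fits were tested on simulated data. The intervals of the fold changes include the variation between mice estimated by the fit, whereas the floor of 3 counts covers counting error only.

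The 9 genes, the lists and the tests were chosen with earlier results of these data known. Named are the 9 genes, other complement genes that passed in either fit, the most abundant of each group, neighbours, and the 5 genes most like C1q. *C1ra* and *Cr1l* were named after their values were seen. Alternatives were no filter, median-of-ratios, upper-quartile and total-count scaling, TMM without seminal vesicle genes, DESeq2 1.42.0, a block for the replicate number, leaving out each mouse, *C4a* and *C4b* summed, and a geometric mean of markers. Leaving out NCD replicates 1 and 2 was added after the data had been seen.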

Additional observations from a re-analysis of the deposited data

How the results depend on the processing

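With all libraries, 5 of the 9 genes passed, and so did from 4 to 6 without a filter, with median-of-ratios or upper-quartile scaling, without seminal vesicle genes in TMM, and in DESeq2. Of all genes tested, from 4.21% to 7.45% passed in the edgeR fits among these and 25.6% in DESeq2. With total counts alone, 2 passed (*C3ar1* and *C5ar1*) beside 6.29% of all genes, and the median of all genes moved from -0.08 to 0.45. Leaving out each mouse in turn gave from 0 to 5, and 5 only without NCD replicate 1, the one such fit in which more than 7 of all genes passed (3234). Without NCD replicates 1 and 2, chosen after seeing the data, 3 passed (*C1qb*, *C3ar1* and *C5ar1*), with the lone NCD library assumed to vary like the HFD group, beside 3.32% of all genes. Without NCD replicate 1 alone, from 5 to 6 passed in every alternative tried. Beside them, from 15.4% to 22.6% of all genes passed in the edgeR fits and 34.8% in DESeq2.

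Same-numbered mice did not deviate together (r of -0.06, -0.05 and 0.01). With 3 mice per diet, these values cannot exclude that the numbers pair the mice. With the replicate block 0 of the 9 genes and 0 of the 31 others passed in edgeR, with 6 and 11 at an unadjusted p under 0.05. Of all 15241 genes 12 passed with the block (0.0787%), and 3571 had an unadjusted p under 0.05. With the block the log2 fold changes were 3.25 for *C3ar1*, 3.47 for *C5ar1* and 1.998 for *C1qb*. The block gave p = 0.75 for C1q to macrophage markers, and 0.25 for the other 2 ratios, the exact permutation tests of 3 pairs reaching no lower.

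Of the other complement genes, 5 passed with all libraries, 3 without a filter, with upper-quartile scaling or with total counts alone, 9 in DESeq2, where 25.6% of all genes passed, from 0 to 10 with each mouse left out, where from 2 to 3234 of all genes passed, and 2 without NCD replicates 1 and 2. The log2 fold change of *C2* turned positive with total counts alone (0.21, or -0.24 relative to the median of all genes), without NCD replicate 3 (0.26) and without HFD replicate 1 (0.08), with a range from -0.54 to 0.26 over the mice left out, and that of *Cr1l* with total counts alone (0.30, or -0.15 relative to the median). The log2 ratio of C1q to macrophage markers ranged from -0.30 to -0.06 with each mouse left out, that of *C3ar1* to *C5ar1* from -0.43 to -0.11 and that of *C3* to *Cfd* from 3.01 to 3.76. The cause of these changes was not tested.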

Other observations

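*C5ar2*, the gene of a second C5a receptor, lies 2588 bp from *C5ar1*. It received 48, 144 and 105 counts in NCD replicates 1, 2 and 3 and 1025, 2 and 1404 counts in HFD replicates 1, 2 and 3. HFD replicate 2 thus held 2 counts where the other HFD mice held over 1000, while *C5ar1* stood at 129 CPM in that mouse, against 163 and 191 CPM in the other HFD mice. *C1rb*, a near-identical copy of *C1ra*, had no count in 5 libraries, and 1273 counts in HFD replicate 3, so the division of reads between the copies is uncertain.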
